A study of Mus musculus with 24 samples.

Results

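Genes linked to cell cycle arrest were followed through the subsets of splenic regulatory T (Treg) cells. They comprise inhibitors of cyclin-dependent kinases (CDKs), the retinoblastoma (pocket protein) family and the stress gene Gadd45b. Members were found by matching gene symbols to the Ensembl identifiers of the normalized count table, which gave 10 of the 17464 listed genes. These were Cdkn1a, Cdkn1b, Cdkn1c, Cdkn2c, Cdkn2d, Cdkn3, Rb1, Rbl1, Rbl2 and Gadd45b, and all 10 passed the filter on low values. Treg cells were sorted from the spleens of wild-type C57BL/6JRccHsd mice, 4 young (2 months) and 4 old (26 months). Resting cells (rTreg, CD44-), activated cells (aTreg, CD44+) and KLRG1+ cells (kTreg) were taken from each animal, giving 24 bulk RNA-seq libraries in 6 groups of 4. The design text names 8 mice for these libraries, so the 3 libraries that share a sample number within an age were taken as those of 1 mouse. The labels do not state this link, and counts of mice rest on it. The labels name no transgene and no treatment, and the subsets were told apart by surface markers alone.

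Progression from G1 into S phase depends on CDK4, CDK6 and CDK2, which phosphorylate the pocket proteins RB (Rb1), p107 (Rbl1) and p130 (Rbl2) and thereby release E2F transcription factors. Proteins of the INK4 family, here p18 (Cdkn2c) and p19 (Cdkn2d), bind CDK4 and CDK6, whereas those of the Cip/Kip family, p21 (Cdkn1a), p27 (Cdkn1b) and p57 (Cdkn1c), act on a wider range of cyclin-CDK complexes. In quiescent cells p130 is the main pocket protein of the DREAM complex, which represses cell cycle genes. Several of these genes are used as senescence markers, while others, such as Cdkn3 and Cdkn2c, are themselves transcribed in cycling cells, so a higher mRNA level does not by itself tell arrest from cycling.

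Klrg1, the marker of the kTreg sort, had normalized counts of 16559 to 41561 in kTreg cells and at most 357 in the other libraries. Foxp3, the Treg lineage factor, was present in every library. It was lower in all old aTreg libraries (5079 to 19813) than in all old kTreg libraries (32111 to 37793). In young mice these ranges overlapped (20351 to 25465 in aTreg and 24669 to 36395 in kTreg cells). Depth was 15045747 to 29521942 reads summed over the listed genes of a library. Of the libraries, 5 stood apart. Young kTreg replicate 4 listed the most genes at 0, old aTreg replicate 2 had the lowest Foxp3 count (5079), young rTreg replicate 2 carried the most B cell transcripts, and young kTreg replicate 2 and old rTreg replicate 3 carried the most macrophage and monocyte transcripts of their groups. The sum over the 5 macrophage and monocyte markers also differed between whole groups. It was 1753 to 2731 in old kTreg, 124 to 239 in old aTreg and 10049 to 26168 in old rTreg cells. In young mice it was 0 to 17136 in kTreg, 32.9 to 2699 in aTreg and 536 to 7763 in rTreg cells. The part of such transcripts in the differences of the members between subsets was not tested. In bulk libraries, fewer cells of a type and less RNA per cell cannot be told apart.

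Normalized counts per kilobase of exon put the members in a wide range. Cdkn2d was the most abundant at 1577 per kilobase (mean of the 24 libraries), at percentile 96.7 of the tested genes. Gadd45b followed at 601 and Rbl2 at 431 per kilobase. Rbl1 (152), Cdkn2c (119), Rb1 (97.6) and Cdkn1b (79.2) lay in the middle. Cdkn1c (40.1), Cdkn1a (28.1) and Cdkn3 (21.0 per kilobase, percentile 31.8) were the lowest. No member was at 0 in any library, although Cdkn1c went down to 8 reads. Between the highest and the lowest of the 6 group means the ratio was 6.57 for Cdkn1c, 5.10 for Cdkn3, 4.68 for Cdkn1a and 4.06 for Rbl2, and only 1.40 for Rb1 and 1.45 for Cdkn1b. The plot of normalized counts by library shows these patterns.

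**Figure D1:**
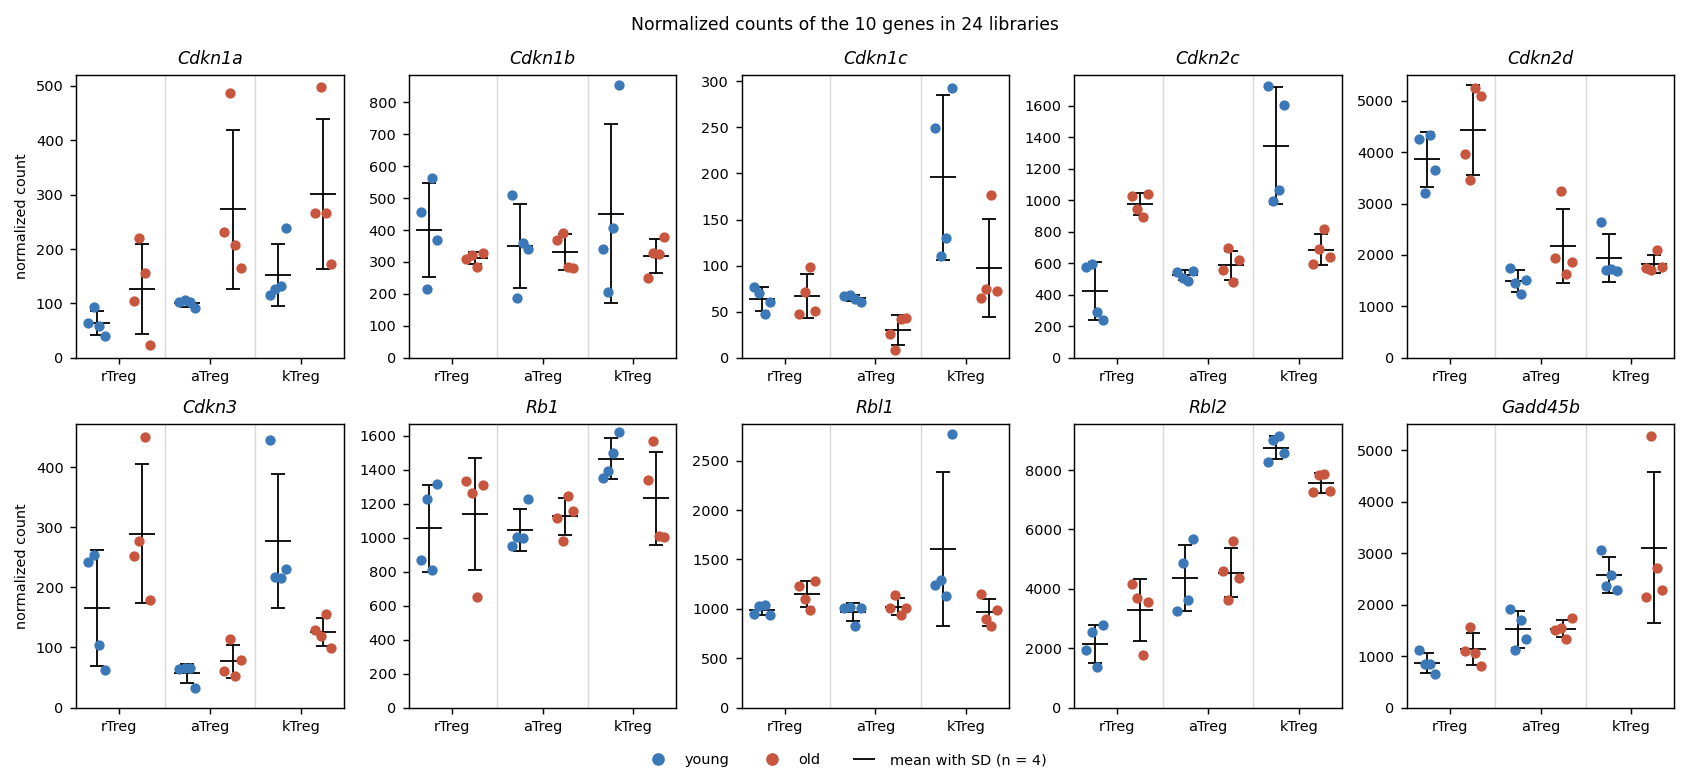
Normalized counts (y axes, linear, from 0, own scale for each gene) of the 10 genes in rTreg, aTreg and kTreg cells (x axis) from young (blue) and old (red) mice; points are libraries, and black bars are the mean with SD of 4 libraries. Rbl2 in kTreg cells (7250 to 9156) lies above all other libraries, and Cdkn2d in rTreg cells (3205 to 5237) lies mostly above the other subsets.

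kTreg cells were first compared with aTreg cells, the antigen-experienced Treg cells that lack KLRG1. Of the 10 members, 5 rose in kTreg cells and 0 fell, with both ages pooled. Those called were Cdkn1c, Cdkn3, Rbl2, Gadd45b and Cdkn2c, with folds of 3.07, 2.83, 1.86, 1.81 and 1.71. Over all tested genes 4.13% were called higher in this comparison, and 7.39% were called in either direction. The median log2 difference was 0.56 over the 10 members and -0.08 over all tested genes. The members were chosen with earlier results of these samples known, so their direction here is not independent evidence. The other 5 members, Cdkn1a, Cdkn1b, Cdkn2d, Rb1 and Rbl1, had log2 differences of 0.08 to 0.35 and were not called. A call required a Benjamini-Hochberg adjusted p below 0.05 in limma and a fold of at least 1.5. All 5 called members were called as well without the 5 libraries that stood apart, by edgeR and by DESeq2.

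Against rTreg cells, the kTreg profile differed in both directions. Cdkn1a, Cdkn1c, Cdkn2c, Rbl2 and Gadd45b rose (5 of 10, against 9.37% of all tested genes) and Cdkn2d fell (1 of 10, against 6.09%). Cdkn3, higher in kTreg than in aTreg cells, had a log2 difference of -0.12 ± 0.30 (SE) from rTreg cells, which was not called. aTreg cells differed from rTreg cells in 4 members. Rbl2 and Gadd45b rose (2 of 10, against 5.23%), and Cdkn2d and Cdkn3 fell (2 of 10, against 2.78%). These 3 comparisons share libraries, and their values stand side by side in the plot of subset differences.

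**Figure D2:**
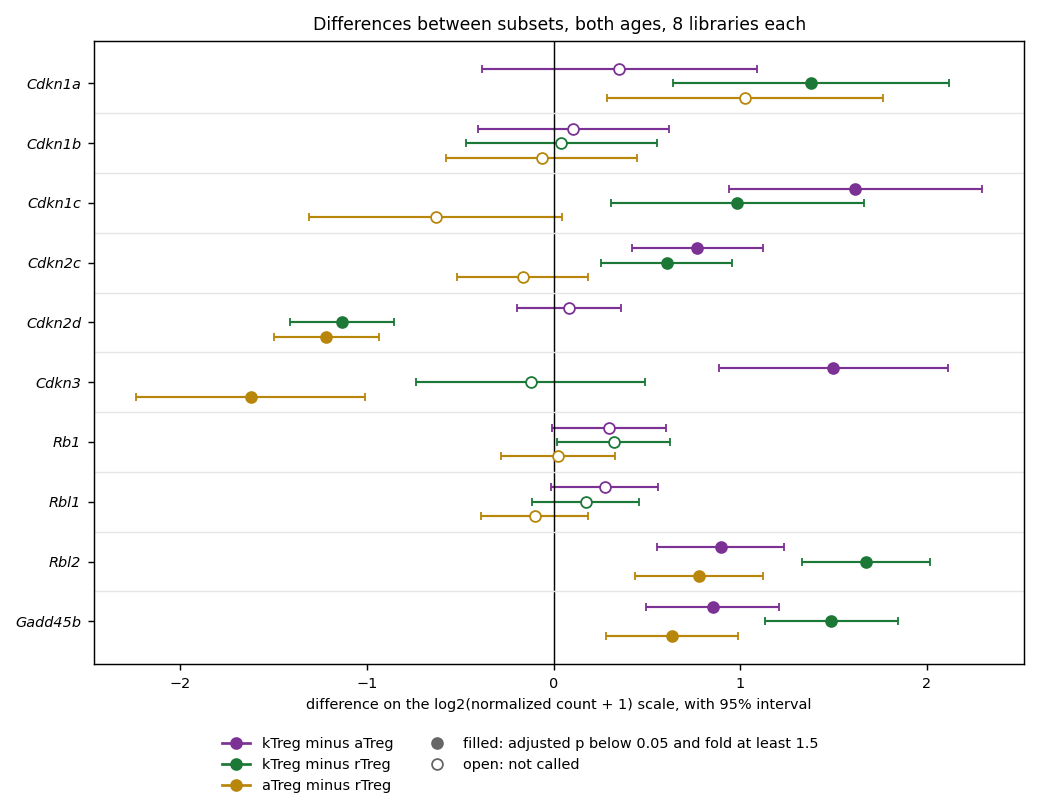
Differences between subsets for the 10 genes on the log2(normalized count + 1) scale (x axis), both ages with equal weight, 8 libraries a subset; points are limma estimates, bars are 95% intervals, and filled points were called. kTreg minus aTreg (purple) is above 0 for all 10 genes and filled for 5, and Cdkn2d is filled below 0 in both comparisons with rTreg cells (-1.13 and -1.22).

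Among the pocket proteins, Rbl2, which encodes p130, had the highest count and the clearest separation. Its normalized counts were 8288, 9005, 9156 and 8575 in young kTreg cells and 7250, 7842, 7874 and 7304 in old kTreg cells. They were 3265, 4870, 3640 and 5681 in young aTreg cells and 4605, 3607, 5607 and 4362 in old aTreg cells. rTreg cells had 1928, 2538, 1367 and 2793 when young and 4148, 3677, 1761 and 3542 when old. All 8 kTreg libraries lay above all 16 others. Only Rbl2 and Gadd45b separated kTreg from aTreg cells in this way, with higher values, as 1.64% of all tested genes did, and both also separated kTreg from rTreg cells, where the share was 2.36%. The log2 difference was 0.90 ± 0.16 (SE) from aTreg cells (adjusted p = 0.00092, limma) and 1.67 ± 0.16 from rTreg cells (adjusted p = 1.3e-07, limma). aTreg cells were intermediate, 0.78 ± 0.16 above rTreg cells (adjusted p = 0.0028, limma), and higher in 7 of 8 mice.

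Rb1 and Rbl1 varied far less. The 8 kTreg libraries had 1003 to 1620 normalized counts of Rb1, the gene of RB itself. The corresponding ranges were 952 to 1248 in aTreg and 650 to 1334 in rTreg cells, and the subsets overlapped. In young mice alone, kTreg cells (1351 to 1620) did not overlap aTreg cells (952 to 1226), but the log2 difference of 0.49 ± 0.21 was not called (adjusted p = 0.16, limma). Rbl1, encoding p107, had 1245, 1289, 1125 and 2771 normalized counts in young kTreg cells and 1004, 1019, 830 and 1008 in young aTreg cells. The groups did not overlap, and the log2 difference of 0.64 ± 0.20 was called (adjusted p = 0.046, limma). Without young kTreg replicate 4 the difference was 0.34 (adjusted p = 0.11, limma), and the call was lost in 28 of 46 alternatives. In old mice Rbl1 differed by -0.09 ± 0.20 between the same subsets.

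Some exons of the pocket protein genes overlap those of neighbours on the other strand, and the strand setting of the read counting is not given in the sources used here. Rbl2 (GRCm39, chr8:91796664-91850492, plus strand) shares 4194 exon bases, 35.4% of its exon length, with Aktip. Aktip, with a mean of 790 normalized counts against 5112 for Rbl2, had log2 differences of -0.74 ± 0.29 between kTreg and aTreg cells and -0.71 ± 0.29 between kTreg and rTreg cells, opposite in sign to those of Rbl2. Neither was called. Rb1 (chr14:73421113-73563507, minus strand) shares 488 exon bases with Rcbtb2 and 408 with Lpar6, and Rbl1 shares 329 with Gm14277. Rcbtb2 and Lpar6 had mean counts of 2358 and 1879, against 1177 for Rb1. Lpar6 was called higher in kTreg (0.78 ± 0.14) and in aTreg (1.07 ± 0.14) than in rTreg cells. Rcbtb2 was called higher in aTreg than in rTreg cells (0.62 ± 0.10). Between kTreg and aTreg cells neither Rcbtb2 nor Lpar6 was called. The part of their reads in the Rb1 counts was not tested.

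The Cip/Kip inhibitors behaved differently from each other. Cdkn1c, the gene of p57, had low counts, with 250, 111, 130 and 293 in young kTreg cells and 65.0, 74.8, 177 and 72.2 in old kTreg cells. Young aTreg cells had 66.8, 68.6, 64.3 and 60.6 and old aTreg cells 26.3, 8.26, 41.7 and 42.9. Within each age the kTreg libraries lay above the aTreg libraries, and the difference had the same sign in 8 of 8 mice. The log2 difference was 1.62 ± 0.33 (adjusted p = 0.0020, limma). In old mice it was 1.77 ± 0.46 (adjusted p = 0.043, limma), and in young mice 1.46 ± 0.46, which missed the threshold without the mouse in the model (adjusted p = 0.054, limma) and passed it with the mouse as a random block (adjusted p = 0.040, limma). Since young rTreg cells had 47.5 to 77.1 and old rTreg cells 48.1 to 98.5, Cdkn1c was also higher in kTreg than in rTreg cells, by 0.98 ± 0.33 (adjusted p = 0.033, limma). That call was lost in 13 of 47 alternatives, 12 of which left out a library or a mouse.

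Cdkn1a, which encodes the p53 target p21, was higher in kTreg than in rTreg cells. Its normalized counts were 115, 127, 132 and 238 in young kTreg cells, against 64.7, 94.2, 58.0 and 40.1 in young rTreg cells. Old kTreg cells had 266, 497, 267 and 173, and old rTreg cells 104, 220, 157 and 24.4. kTreg exceeded rTreg libraries in 8 of 8 mice, and the pooled log2 difference was 1.38 ± 0.36 (adjusted p = 0.0068, limma). aTreg cells had 90.9 to 106 when young and 165 to 488 when old. Their log2 difference from rTreg cells was 1.02 ± 0.36, above 0 in 8 of 8 mice, but was not called without the mouse in the model (adjusted p = 0.073, limma) or with it as a random block (adjusted p = 0.051, limma). It was called with the mouse as a fixed term (adjusted p = 0.017, limma). Between kTreg and aTreg cells Cdkn1a differed by 0.35 ± 0.36, with a 95% interval of -0.38 to 1.09.

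Cdkn1b, the gene of p27, had 187 to 509 normalized counts in aTreg, 207 to 852 in kTreg and 216 to 563 in rTreg libraries. The subsets overlapped throughout, and the log2 difference between kTreg and aTreg cells was 0.11 ± 0.25 with a 95% interval of -0.41 to 0.62. The highest count came from young kTreg replicate 4.

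The INK4 inhibitors separated the subsets along different lines. Cdkn2d, which encodes p19, was the member with the highest level in resting cells, at 4248, 3205, 4328 and 3645 normalized counts in young and 3954, 3453, 5237 and 5092 in old rTreg cells. Young kTreg cells had 2648, 1706, 1731 and 1688 and old kTreg cells 1742, 1717, 2095 and 1760. All 8 kTreg libraries lay below all 8 rTreg libraries, as was so for 1.62% of all tested genes. The log2 difference was -1.13 ± 0.14 (adjusted p = 1.9e-06, limma). aTreg cells, with 1244 to 1753 when young and 1638 to 3238 when old, were lower than rTreg cells by a similar amount, -1.22 ± 0.14 (adjusted p = 4.0e-06, limma). The highest aTreg value, from old aTreg replicate 2, was the only one to reach the rTreg range. kTreg and aTreg cells differed by 0.08 ± 0.14, with a 95% interval of -0.20 to 0.36.

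Cdkn2c, the gene of p18, depended on both subset and age. It had 1725, 995, 1063 and 1604 normalized counts in young kTreg cells and 548, 508, 490 and 554 in young aTreg cells. Young rTreg cells had 574, 595, 294 and 240. Young kTreg cells thus lay above both other young subsets, by 1.32 ± 0.24 (adjusted p = 0.0012, limma) and 1.73 ± 0.24 (adjusted p = 1.8e-05, limma) on the log2 scale. In old mice the order was another. Old rTreg cells had 1026, 948, 896 and 1043, old kTreg cells 597, 688, 821 and 639, and old aTreg cells 557, 695, 481 and 622. Old kTreg cells lay below old rTreg cells without overlap, as 7.65% of all tested genes did, with a log2 difference of -0.52 ± 0.24 that was not called (adjusted p = 0.18, limma). The pooled difference of 0.61 from rTreg cells therefore averages values of opposite sign. Its call was lost in 12 of 47 alternatives, edgeR and DESeq2 among them. The pooled difference of 0.77 from aTreg cells averages 1.32 in young and 0.22 in old mice. That change with age was not called (adjusted p = 0.30, limma interaction).

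Cdkn3, which encodes a phosphatase that acts on CDK2, was like Cdkn2c higher in young kTreg than in young aTreg cells, at lower counts. Its normalized counts were 445, 217, 216 and 230 in young kTreg cells and 63.5, 66.1, 65.1 and 32.0 in young aTreg cells, a log2 difference of 2.25 ± 0.42 (adjusted p = 0.0014, limma). Old kTreg cells had 129, 119, 155 and 99.8 and old aTreg cells 60.9, 115, 52.7 and 79.4. These overlapped, and the log2 difference of 0.75 ± 0.42 was not called (adjusted p = 0.40, limma). rTreg cells had 242, 254, 104 and 62.2 when young and 251, 277, 450 and 178 when old. Unlike for Cdkn2c, the log2 difference between young kTreg and young rTreg cells, 0.89 ± 0.42, was not called. With both ages pooled, aTreg cells were lower than rTreg cells by 1.62 ± 0.30 (adjusted p = 0.00079, limma), in 8 of 8 mice. For Cdkn2c the same comparison gave -0.17 ± 0.17, which was not called. Cdkn3 (chr14:46997904-47015505, plus strand) shares 498 exon bases, 6.33% of its exon length, with Cnih1 on the other strand, whose differences between subsets were -0.19 to 0.08.

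Gadd45b, a gene induced by NF-kappaB and stress, had 3059, 2359, 2571 and 2283 normalized counts in young kTreg cells and 2150, 5271, 2711 and 2289 in old kTreg cells. The aTreg libraries had 1120 to 1918 when young and 1332 to 1735 when old, and the rTreg libraries 659 to 1126 and 808 to 1558. The order kTreg, aTreg, rTreg was the same at both ages. The log2 difference was 0.85 ± 0.17 between kTreg and aTreg cells (adjusted p = 0.0019, limma) and 1.49 ± 0.17 between kTreg and rTreg cells (adjusted p = 1.2e-06, limma), each above 0 in 8 of 8 mice. Between aTreg and rTreg cells it was 0.63 ± 0.17 (adjusted p = 0.018, limma), a call lost in 5 of 47 alternatives.

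The subsets were also compared within each age. In young mice, Cdkn2c, Cdkn3, Rbl1, Rbl2 and Gadd45b were higher in kTreg than in aTreg cells (5 of 10, against 3.46% of all tested genes). In old mice Cdkn1c and Gadd45b were (2 of 10, against 1.33%), both with adjusted p = 0.043 in limma, and both lost without the 5 libraries that stood apart (adjusted p = 0.065 and 0.077, limma). Groups of 4 libraries did not overlap for 8 members in young mice, all higher in kTreg cells (6.67% of all tested genes), and for 3, Cdkn1c, Rbl2 and Gadd45b, in old mice (11.4%). The difference between ages was tested directly. It was not called for any member in kTreg against aTreg cells by limma, edgeR or DESeq2, with a background of 0.156%, although 4 members had an unadjusted p below 0.05. The log2 interactions nearest the threshold were those of Cdkn2c (-1.09 ± 0.34, adjusted p = 0.30, limma), Rbl1 (-0.73 ± 0.28) and Cdkn3 (-1.50 ± 0.59).

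Against rTreg cells, Cdkn2c was the member whose kTreg difference changed with age. The difference was 1.73 ± 0.24 in young and -0.52 ± 0.24 in old mice, an interaction of -2.25 ± 0.34 (adjusted p = 0.0010, limma), where 3.05% of all tested genes were called. It was called in all 44 alternatives, including those without the 5 libraries that stood apart (-2.54). Cdkn3 had an interaction of -2.02 ± 0.59 that was not called (adjusted p = 0.065, limma) and that was called with the mouse as a random block (adjusted p = 0.048, limma), as a fixed term (adjusted p = 0.040, limma) and by DESeq2. So the number of members called rose from 1 to 2 with either block. The 5 members called higher in young kTreg than young rTreg cells were Cdkn1c, Cdkn2c, Rbl1, Rbl2 and Gadd45b, and Cdkn2d was lower (6 of 10 in all, against 15.8%). The Rbl1 difference of 0.60 fell to 0.30 and lost its call without young kTreg replicate 4 (adjusted p = 0.096, limma), 1 of 12 alternatives of 46 in which that call was lost. In old mice Rbl2 and Gadd45b were higher and Cdkn2d lower (3 of 10, against 8.86%). For aTreg against rTreg cells, Cdkn2d fell and Rbl2 rose in young mice (2 of 10, against 3.35%), Cdkn2d and Cdkn3 fell in old mice (2 of 10, against 8.60%), and no interaction was called by limma, edgeR or DESeq2 (background 1.58%, 2 members with an unadjusted p below 0.05).

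Old and young mice were then compared within each subset. In rTreg cells Cdkn2c rose 2.47-fold with age, a log2 difference of 1.31 ± 0.24 (adjusted p = 0.0015, limma), and was the only member called (1 of 10, against 4.12% of all tested genes called higher). All 4 old libraries (896 to 1043) lay above all 4 young libraries (240 to 595), as was so for 6.61% of all tested genes, and the call held in all 45 alternatives. Rbl2, at 0.59 ± 0.23, was called in the 3 alternatives that left out old rTreg replicate 3, the old rTreg library with its lowest count, and at an unadjusted p. The old rTreg libraries differed from the young ones in further ways. Their sum over the 5 macrophage and monocyte markers, all listed, was 10049 to 26168 against 536 to 7763 in young rTreg cells, and none of the 5 was at 0 throughout. Their sum over the 30 proliferation genes was 76442 to 88811 against 32471 to 62885. Over 4 plasma cell markers the sum was 8579 to 14250 in old and 4362 to 5739 in young rTreg cells. Over 3 NK cell markers it was 715 to 1585 against 225 to 446. Over 2 CD8 T cell markers it was lower, 295 to 554 against 566 to 2185. The sums for B cells, neutrophils and erythroid cells overlapped between the ages. The part of any of these in the Cdkn2c difference was not tested.

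In aTreg cells no member was called between ages by limma or edgeR (background 2.71%), and 3 had an unadjusted p below 0.05. Cdkn1a, with 165 to 488 normalized counts in old and 90.9 to 106 in young aTreg cells, did not overlap, and its log2 difference was 1.31 ± 0.50 (adjusted p = 0.22, limma). DESeq2 called it (adjusted p = 0.044). Cdkn1c differed in the other direction, 8.26 to 42.9 in old and 60.6 to 68.6 in young aTreg cells, also without overlap, by -1.33 ± 0.46 (adjusted p = 0.15, limma). The share of all tested genes without overlap was 13.4%.

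In kTreg cells no member was called between ages by limma or edgeR either (background 1.26%), and 4 had an unadjusted p below 0.05. Cdkn2c, Cdkn3 and Rbl2 were lower in all 4 old than in all 4 young libraries, as 3.88% of all tested genes were. Their log2 differences were -0.94 ± 0.24 (adjusted p = 0.053, limma), -1.08 ± 0.42 (adjusted p = 0.22, limma) and -0.21 ± 0.23 (adjusted p = 0.66, limma). DESeq2 called Cdkn2c and Rbl1. Cdkn1a had a log2 difference of 0.93 ± 0.50 in kTreg and 0.65 ± 0.50 in rTreg cells, above 0 in all 3 subsets and called in none by limma.

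**Figure D3:**
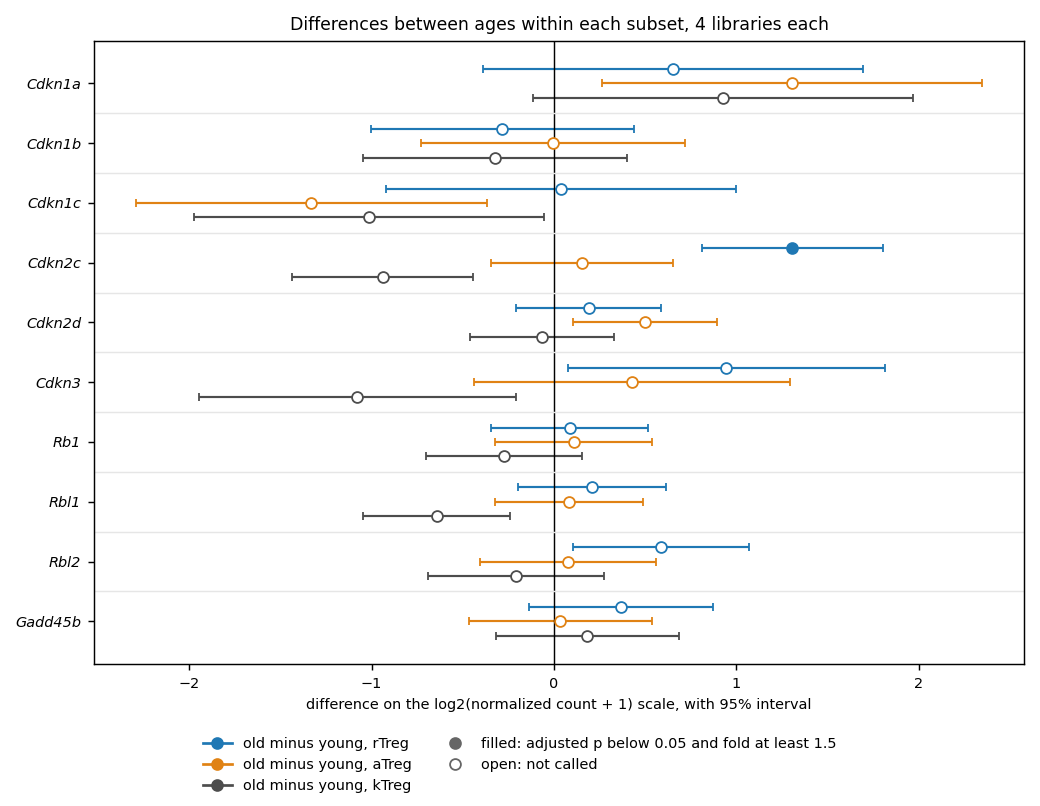
Differences between old and young mice within each subset for the 10 genes on the log2(normalized count + 1) scale (x axis), 4 libraries a group; points are limma estimates, bars are 95% intervals, and filled points were called. The only filled point is Cdkn2c in rTreg cells (1.31), while Cdkn2c in kTreg cells lies on the other side of 0 (-0.94).

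The level of cell cycle transcripts was set beside the members, since some of them, such as Cdkn2c and Cdkn3, are transcribed in cycling cells. Over 30 proliferation genes, none of them a member, 19 were higher (against 4.13% of all tested genes) and 0 lower in kTreg than in aTreg cells, with a median log2 difference of 1.03. Kif11, a mitotic kinesin, differed by 1.89 ± 0.27 and Bub1b, a spindle checkpoint kinase, by 1.51 ± 0.25, whereas the replication genes Pcna (-0.20 ± 0.12) and Mcm2 (-0.20 ± 0.14) were not called. In young mice the count was again 19, against 3.46% of all tested genes. In old mice 0 were called by limma, where 1.33% of all tested genes were called higher, with a list median of 0.51. In old mice 6 of the 30 had an unadjusted p below 0.05 in limma, and edgeR called 0 and DESeq2 1. Against rTreg cells, 10 of the 30 were higher and 0 lower in young kTreg cells, where 15.8% of all tested genes were called in either direction. In old kTreg cells 24 of the 30 were lower and 0 higher, where 8.86% were called in either direction. Between old and young rTreg cells 22 of the 30 were higher, against 4.12% of all tested genes.

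Across the 24 libraries, the level of Cdkn3 had a Pearson r of 0.90 (Spearman rho 0.89) with the mean log2 level of the proliferation genes, and that of Cdkn2c an r of 0.75 (rho 0.84). These points share groups, mice and library depth, so r was also taken within subsets. A subset still pools both ages. The proliferation sums did not overlap between ages in rTreg cells (32471 to 62885 young, 76442 to 88811 old). They did not in kTreg cells either (51928 to 90100 young, 38473 to 46303 old). An r within these subsets therefore includes the difference between ages. Within the 8 rTreg libraries r was 0.99 for Cdkn2c and 0.85 for Cdkn3. Within the 8 kTreg libraries it was 0.83 and 0.98, and within the 8 aTreg libraries, where the proliferation sum spans only 33164 to 43504, 0.62 and 0.33. Rbl2 had an r of 0.02 over the 24 libraries, but 0.50 within rTreg, -0.45 within aTreg and 0.59 within kTreg cells. Gadd45b had an r of 0.04 over the 24 libraries and of 0.59, 0.62 and -0.01 within the same subsets. For Cdkn1c these were 0.39 over all libraries and 0.31, -0.63 and 0.67 within subsets. Cdkn2d had an r of 0.55 over all libraries and of 0.24, 0.67 and 0.69 within rTreg, aTreg and kTreg cells. Rbl1, called between kTreg and aTreg cells in young mice only, had an r of 0.34 over all libraries. Within the same subsets its r was 0.57, 0.29 and 0.28. Of the members called between kTreg and aTreg cells, Cdkn2c and Cdkn3 had an r of at least 0.83 within rTreg and within kTreg cells. For the other 3 the r within subsets lay between -0.63 and 0.67. An r over 8 libraries is imprecise, so the signs of these smaller values were not read as differences between members. The part of cycling cells in the kTreg differences of Cdkn2c, Cdkn3 and Rbl1 was not tested.

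**Figure D4:**
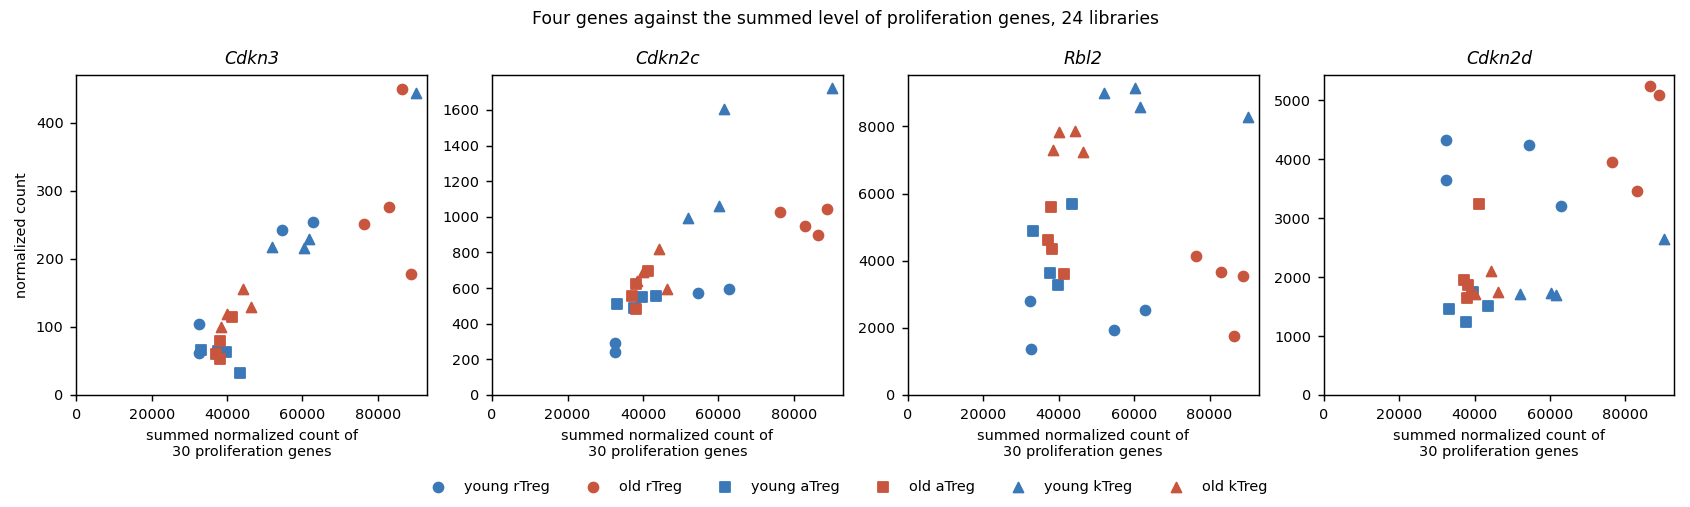
Normalized counts of Cdkn3, Cdkn2c, Rbl2 and Cdkn2d (y axes, linear, from 0) against the summed normalized count of 30 proliferation genes (x axis) in the 24 libraries; colour gives age and shape gives subset. Cdkn2c is highest in the young kTreg and old rTreg libraries. Cdkn3 has its highest group means there. Its counts in young rTreg replicates 1 and 2 (242 and 254) exceed those in young kTreg replicates 2 to 4 (216 to 230). Rbl2 is highest in the 8 kTreg libraries at every sum and Cdkn2d, apart from 1 old aTreg library, in the rTreg libraries.

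The genes most like each member over the 24 libraries, by Pearson r among all tested genes, were of different kinds. For Cdkn3 they were Ccnb2 (r = 0.95), Cdk1 (0.94) and Aurkb (0.94), all genes of mitosis. For Cdkn2c they were Racgap1 (0.92), a cytokinesis gene, H1f0 (0.90) and Morrbid (0.89). Cdkn2d was most like Rasgrp2 (0.88), Klf2 (0.88), a transcription factor of resting T cells, and Fam186b (0.86). Rbl2 was most like Vps54 (0.96), Srpra (0.95) and Tnfrsf1b (0.95), the gene of TNF receptor type II. Gadd45b was most like Gm28100 (0.90), Penk (0.90) and Ccrl2 (0.90), and Cdkn1c like Zbed3 (0.85), Ctla4 (0.84) and Rps6ka1 (0.84). Rbl1 was most like Grpel2 (r = 0.86), but with a Spearman rho of only 0.48. Among the members themselves r was 0.77 for Rbl2 with Gadd45b, 0.70 for Cdkn2c with Cdkn3, and -0.69 for Rbl2 with Cdkn2d.

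Promoters of Cdkn3, Cdkn2c and Cdkn2d were read. They set the pair with the highest r with the proliferation genes beside an inhibitor that was high in resting cells. Cdkn2d also had an r above 0 with the proliferation genes (0.55 over all libraries). The sequences are the 250 bases before the annotated start of the main transcript in GENCODE M39, on GRCm39 and on the strand of the gene: chr14:46997654-46997903 (plus) for Cdkn3, chr4:109524044-109524293 (minus) for Cdkn2c and chr9:21202728-21202977 (minus) for Cdkn2d. Capitals mark matches, on either strand, to the E2F core (GCGGGAA or GCGCGAA) or to the cell cycle homology region, CHR (TTTGAA or TTCGAA), the elements by which E2F and the DREAM complex contact cell cycle promoters.
Cdkn3: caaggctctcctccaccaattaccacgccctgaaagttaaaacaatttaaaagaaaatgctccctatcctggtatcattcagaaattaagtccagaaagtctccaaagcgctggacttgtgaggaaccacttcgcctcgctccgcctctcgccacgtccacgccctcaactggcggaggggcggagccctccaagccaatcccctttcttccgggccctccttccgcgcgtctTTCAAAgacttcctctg
Cdkn2c: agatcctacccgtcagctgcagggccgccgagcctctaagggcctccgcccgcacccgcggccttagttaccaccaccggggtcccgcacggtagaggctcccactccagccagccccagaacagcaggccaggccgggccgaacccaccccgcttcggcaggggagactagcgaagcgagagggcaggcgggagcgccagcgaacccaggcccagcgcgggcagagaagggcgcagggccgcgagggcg
Cdkn2d: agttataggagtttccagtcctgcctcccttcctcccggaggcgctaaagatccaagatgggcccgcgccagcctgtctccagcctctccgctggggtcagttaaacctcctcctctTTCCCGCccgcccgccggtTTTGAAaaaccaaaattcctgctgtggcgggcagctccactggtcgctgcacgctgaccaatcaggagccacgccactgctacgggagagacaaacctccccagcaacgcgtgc
Cdkn3 held 1 CHR match, from -17 to -12 relative to the start, and no E2F core. Cdkn2c held neither, which says only that these letters are not in this window. Cdkn2d held an E2F core from -133 to -127 and a CHR match from -114 to -109. Of 21770 such promoters, 5.84% held an E2F core, 17.0% a CHR match and 0.707% both. Among the 10 members, 2 (Cdkn2d and Rb1) held an E2F core and 4 (Cdkn2d, Cdkn3, Rb1 and Rbl2) a CHR match, and the forkhead motif TGTTTAC, found in 2.72% of promoters, was in none. The matches are a description of the letters, and binding was not measured.

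The partners of the members in the pathway were examined as lists. Of 15 cyclins and CDKs, 4 were higher in kTreg than in aTreg cells and 0 lower, against 4.13% of all tested genes, namely the S and M phase genes Ccna2 (1.37 ± 0.25), Ccnb2 (1.26 ± 0.26), Ccnb1 and Cdk1. Cdk4 (-0.39 ± 0.07) and Cdk7 (-0.41 ± 0.10) had the smallest adjusted p among those lower, below the fold threshold. The list had a median log2 difference of 0.30. In young mice alone 6 of the 15 were called higher, against 3.46% of all tested genes. In old mice alone 0 were, against 1.33%, and Ccnd3 was called lower. Against rTreg cells 1 of the 15 was higher (Cdk6, the G1 kinase that p18 and p19 bind), where 9.37% of all tested genes were, and 2 were lower (Ccne1 and Mnat1), where 6.09% were. In aTreg cells 6 of the 15 were lower than in rTreg cells, against 2.78%.

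Of 17 E2F factors and DREAM partners, 3 were higher in kTreg than in aTreg cells and 0 lower: E2f2 (0.84 ± 0.15), Mybl2 (1.01 ± 0.27), the B-MYB gene that replaces p130 on the MuvB core in cycling cells, and Foxm1 (3 of 17, against 4.13% of all tested genes). Among those lower, E2f5 (-0.54 ± 0.30) and E2f6 (-1.55 ± 0.88) had the smallest p and were not called. The list median was -0.001. In young mice alone 2 of the 17 were called higher (against 3.46% of all tested genes) and in old mice 0 (against 1.33%). In old kTreg cells 4 of the 17 (E2f1, E2f2, E2f8 and Mybl2) were lower than in old rTreg cells and 0 higher. There 8.86% of all tested genes were called in either direction. In aTreg cells 4 were lower than in rTreg cells (against 2.78% of all tested genes). Between old and young rTreg cells 4 of the 17 were higher, against 4.12% of all tested genes.

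The regulators of the inhibitors stayed below the fold threshold or the adjusted p threshold between kTreg and aTreg cells. Of 15 genes that act on CDK inhibitor transcription or turnover, 0 were called by limma in that comparison, 0 by edgeR and 0 by DESeq2, while 5 had an unadjusted p below 0.05 in limma. Mdm2, the ligase of p53, had a log2 difference of 0.35 ± 0.09, Trp53, the gene of p53, -0.40 ± 0.10, Foxo1, a forkhead factor that drives Cdkn1b, -0.35 ± 0.07, and Smad3 0.46 ± 0.19, all below the fold threshold. Against rTreg cells Smad3 was higher and Foxo1 and Klf2 lower in kTreg cells. Of 7 other growth arrest genes, 0 were called between kTreg and aTreg cells by limma, edgeR or DESeq2, and 3 had an unadjusted p below 0.05 in limma, with values from Tob2 (0.24 ± 0.12) and Gadd45g (0.14 ± 0.17) to Btg1 (-0.29 ± 0.07) and Btg2 (-0.30 ± 0.14). Gadd45g, a relative of Gadd45b, was lower in kTreg and in aTreg cells than in rTreg cells.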

How the data were processed

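Normalized counts per gene were deposited for 24 libraries. Per the labels and the paper's methods, the authors prepared libraries with the SMART-Seq v4 kit, sequenced pairs of 150 bases, aligned reads to GRCm39 with HISAT2 2.2.1, counted with HTSeq 1.99.2 and used DESeq2 1.44.0. The deposited values are a signal: reads divided by 1 size factor per library. Whole reads were recovered within 0.001 in all 24 libraries and gave the depths. Listed genes had at least 100 reads in sum. Symbols, positions and exon lengths came from GENCODE M39, which named 17353 identifiers and left 111 unnamed. PCR copies are not independent molecules, so the spread between mice was the error used.

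limma 3.58.1 (R 4.3.3, mean-variance trend) was fitted on log2(value + 1), with 1 mean for each of 6 groups and no mouse term. Of the listed genes, 16630 reached 10 in 4 or more libraries and were tested. Fold changes on this scale understate those of low genes. Calls needed an adjusted p (Benjamini-Hochberg) under 0.05 plus a 1.5-fold difference, interactions the adjusted p alone. Intervals are 95%. Same-numbered libraries of an age were taken as 1 mouse, a reading of the design text (3 subsets from 8 mice) and the shared sample numbers that the labels do not spell out. Their residuals correlated at a median of 0.15 (rTreg and aTreg), 0.09 (rTreg and kTreg) and 0.12 (aTreg and kTreg) over 8 mice. The correlation was above 0.1 in 4, 3 and 4 of the 8 pairs, and its median between other mice was -0.03, -0.03 and -0.05. edgeR 4.0.16 and DESeq2 1.42.0 were run on the recovered reads as alternatives. The fit was tested on simulated data. Gene lists were written by hand and given as counts and medians, with no set test. All 10 members were named, and from each list the pair with the smallest p in each direction between kTreg and aTreg cells, plus the 3 genes most like each member. Genes called in a list were also named, chosen after their values were seen. Members and lists were chosen with earlier results of these data known. Python 3.11.15, numpy 2.4.6, pandas 2.3.3 and matplotlib 3.10.9 were used. Alternatives in scale, filter, block, tool and libraries are described at the end. Cdkn2a was not analysed here. One further marker used in the sort of rTreg and aTreg cells is not reported here.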

Additional observations from a re-analysis of the deposited data

Results flagged for a closer look

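In groups of 4 libraries, 1 library stood far from the other 3 in 9 of the 60 combinations of gene and group, where chance gives about 1 in 20. Young kTreg replicate 4 had 238 normalized counts of Cdkn1a against 115 to 132 and 2771 of Rbl1 against 1125 to 1289. Young kTreg replicate 1 had 2648 of Cdkn2d against 1688 to 1731 and 445 of Cdkn3 against 216 to 230. Old kTreg replicate 3 had 177 of Cdkn1c against 65.0 to 74.8 and 2095 of Cdkn2d against 1717 to 1760. Young aTreg replicate 4 had 32.0 of Cdkn3 against 63.5 to 66.1, young aTreg replicate 3 had 830 of Rbl1 against 1004 to 1019, and old rTreg replicate 3 had 650 of Rb1 against 1262 to 1334. The kTreg minus rTreg difference of Cdkn2c differed between ages by -2.25 on the log2 scale (adjusted p = 0.0010, limma interaction).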

How the results depend on the processing

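Up to 47 alternatives were run for each comparison. Over 6840 member results, 6567 kept their side of the threshold, 152 lost a call and 121 gained one. None that was called in the main fit or in the alternative changed sign. Changes of sign in results called in neither were not counted. The counts of members called between kTreg and aTreg (5), kTreg and rTreg (6) and aTreg and rTreg cells (4) stayed within 1.5 times under every alternative, including the one chosen after seeing the data, which left out the 5 libraries that stood apart. Cdkn2c lost its kTreg minus aTreg call only without age in the model (adjusted p = 0.097, limma). Between old and young rTreg cells the count of 1 was 3 at an unadjusted p, 2 without those 5 libraries and up to 2 with 1 library or mouse left out. Between old and young aTreg cells the count of 0 became 1 with only the compared groups in the model, 1 by DESeq2, 2 at an unadjusted p and up to 1 with a mouse left out. Between old and young kTreg cells the count of 0 became 1 with a pseudocount of 5, 1 with a filter at 50, 1 after TMM scaling, 2 by DESeq2, 4 at an unadjusted p and up to 1 with a library or mouse left out. For the interaction of age with kTreg against rTreg cells the count of 1 became 2 with the mouse as a random block, 2 as a fixed term (a pairing term), 3 by DESeq2, 3 without the 5 libraries and up to 2 with a library or mouse left out. For aTreg against rTreg cells the interaction count of 0 became 1 without the 5 libraries and up to 1 with a library or mouse left out. The causes were not tested. Beyond the results given with their blocked p above, the replicate block also brought into the call Cdkn1a in young and old kTreg against rTreg cells and in old aTreg against rTreg cells, and Gadd45b, Cdkn3 and Cdkn2c in aTreg against rTreg cells of 1 age. With 4 mice a group and 18 residual degrees of freedom, differences of low genes such as Cdkn1c and Cdkn1a carry standard errors near 0.5 on the log2 scale within an age, and differences of that size were not detectable there.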
